A study of Mus musculus with 12 samples.

Results

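Malat1, Meg3, Neat1, Snhg11, Kcnq1ot1, Miat, Rian and Mirg are long noncoding RNAs that are held in or enriched in the nucleus of mouse cells. These 8 genes of the 27179 gene IDs listed in every library were followed library by library. They were taken as a list, each mapped by symbol to its Entrez gene ID, and all 8 were found. The members were chosen by the deposited counts, because Malat1, Meg3 and Snhg11 differed many-fold between replicate numbers of the neuron cultures. No threshold was set for that difference, so the spread in neurons is given below as a description, with no test.

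The study asked what lowering Brpf1, a chromatin reader and scaffold of histone acetyltransferase complexes, does to gene expression in hippocampal neurons. RNA was sequenced from 12 libraries of C57BL/6 mice in 4 groups of 3, with replicate numbers 1 to 3 in each group. In the first experiment, primary hippocampal neurons cultured from embryos were infected on day 3 in vitro with AAV2-scramble-GFP, an adeno-associated virus with a control hairpin, or AAV2-shBrpf1-GFP, the same virus with a hairpin against Brpf1. In the second, the viruses were injected into hippocampal CA1 at 4 weeks of age and tissue was taken at 8 weeks. The paper's methods can be read as scramble on the left side and shBrpf1 on the right. Its figures, however, count scramble and shBrpf1 mice as separate groups. If each virus went to one side, virus and side cannot be told apart in CA1. All groups therefore carried a GFP-expressing virus, and none was uninfected. The CA1 samples held every cell of the dissected tissue, infected or not. The labels give the age of the embryos as day 18 to 19 in one place and as E14.5 in another, and they name neural progenitor cells as the source of all 12 samples. Where nothing says that libraries came from separate cultures or animals, p-values measure only the spread between these samples.

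Malat1 is among the most abundant RNAs of nuclear speckles, where splicing factors gather, and the long form of Neat1 is the scaffold around which paraspeckles form. Meg3, Rian and Mirg are expressed from the maternal copy of the imprinted Dlk1-Dio3 region, and Rian and Mirg host small nucleolar RNAs and microRNAs. Kcnq1ot1 is expressed from the paternal copy and silences its imprinted neighbours in cis, Miat gathers in nuclear bodies of neurons, and Snhg11 is a small nucleolar RNA host gene expressed in brain.

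Library totals ranged from 18330618 to 30275304 counts, with a median of 24746880. Counting error alone is therefore small for all members except Mirg and Neat1 in the neuron libraries of replicate number 3. No pair of replicates agreed within sampling noise, since the chi-square per degree of freedom was 43.0 to 269. Pan-neuronal markers summed to 3841 to 9738 CPM in neurons and 6738 to 10100 CPM in CA1, where CPM is the count scaled to TMM-adjusted library totals. CA1 pyramidal markers summed to 1247 to 2937 CPM in neurons and 4769 to 6832 CPM in CA1, and progenitor and cell cycle genes to 441 to 1863 CPM and 168 to 216 CPM. Astrocyte markers were also high in the cultures, at 7141 to 14574 CPM. In the CA1 files all 972 IDs of chromosome 13 and all 110 of chromosome Y were listed at 0 in every library, whereas 808 and 13 of them had counts in neurons. No member lies on those chromosomes, and every list below leaves their genes out. In such bulk samples, fewer cells of a type and less RNA per cell cannot be told apart.

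The members lie at 5 places on the GRCm38 assembly (GENCODE M21), which is used here as annotation since the count tables carry no coordinates. Malat1 (Entrez 72289; chromosome 19, 5795690 to 5802672, minus strand) and Neat1 (66961; chromosome 19, 5824708 to 5845478, minus strand) are neighbours, 22.0 kb apart. Meg3 (17263; chromosome 12, 109541001 to 109571726, plus strand), Rian (75745; 109603940 to 109661716, plus strand) and Mirg (100040724; 109729764 to 109749460, plus strand) follow each other, with gaps of 32.2 kb and 68.0 kb. Snhg11 (319317) is on chromosome 2, 158375638 to 158386145, plus strand, and Miat (330166) on chromosome 5, 112213228 to 112229395, minus strand. Kcnq1ot1 (63830; chromosome 7, 143203458 to 143296549, minus strand) lies antisense within the Kcnq1 gene. Whether the counting used strand is not given in the sources used here, so its counts may hold reads of Kcnq1.

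The 3′ ends of these RNAs are shown because the libraries are described as mRNA sequencing and the members do not all carry a poly(A) tail. The mature ends of Malat1 and of the long form of Neat1 are cut by RNase P and protected by a triple helix rather than a poly(A) tail, while the short form of Neat1 is polyadenylated. How RNA was selected for these libraries is not given in the sources used here. The stretches below were read from GENCODE M21 transcripts and are written 5′ to 3′ with T for U. The first is bases 6634 to 6705 of Malat1. Its capitals mark a run of 16 bases that also occurs, once, at the end of the long form of Neat1. In the other stretches, which are the last 60 bases of a transcript, capitals mark that run or a poly(A) signal, AATAAA or ATTAAA, found in the last 50 bases on the transcript's strand.
Malat1 inner stretch: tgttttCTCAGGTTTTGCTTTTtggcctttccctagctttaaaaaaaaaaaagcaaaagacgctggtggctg
Neat1 long form end: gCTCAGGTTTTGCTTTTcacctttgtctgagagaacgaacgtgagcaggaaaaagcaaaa
Neat1 short form end: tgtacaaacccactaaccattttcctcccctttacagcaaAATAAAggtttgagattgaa
Meg3 end: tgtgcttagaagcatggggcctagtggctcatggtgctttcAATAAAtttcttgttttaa
Snhg11 end: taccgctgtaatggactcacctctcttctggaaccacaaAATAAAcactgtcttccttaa
Miat end: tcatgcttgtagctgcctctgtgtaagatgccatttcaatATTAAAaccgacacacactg

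The shared run ends 43 bases before the end of long Neat1. In Malat1 it is followed by a run of 12 A at bases 6674 to 6685, which is 298 bases before the annotated end. Kcnq1ot1 holds 10 runs of at least 10 A, the longest of 41, and the transcripts examined of the other members hold none. The annotated end of Malat1, past the processed one, also has an AATAAA. Of all 13611 lincRNA and antisense transcripts in the annotation, 40.4% had AATAAA or ATTAAA in the last 50 bases, as did 50.2% of 58787 protein-coding transcripts, so a signal there is common and is given only as a description.

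The promoter of Meg3 is shown because Meg3 had one of the widest ranges of the 8 genes. It is the RefSeq promoter on GRCm38.p6, chr12:109540746-109541045, plus strand, from 250 bases before to 50 after the start. Capitals mark a CCAAT at -100, a cAMP response element TGACGTCA at -57, and TATAAA, matched at -29 on one strand and at -25 on the other with the matches overlapping.
Meg3 promoter: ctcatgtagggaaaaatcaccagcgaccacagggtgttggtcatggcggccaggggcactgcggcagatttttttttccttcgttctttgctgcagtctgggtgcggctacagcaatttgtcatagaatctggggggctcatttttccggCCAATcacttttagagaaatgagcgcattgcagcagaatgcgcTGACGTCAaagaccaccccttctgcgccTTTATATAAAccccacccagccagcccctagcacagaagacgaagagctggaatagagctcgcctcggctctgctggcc

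On either strand, TGACGTCA occurred in 1.79% of the 32851 promoters of this length, CCAAT in 37.4% and TATAAA in 13.6%. RefSeq promoter entries were matched for 7 of the 8 members, all but Neat1. A second entry for Meg3 held none of these motifs. Among the other matched members, CCAAT occurred 3 times in the promoter of Kcnq1ot1 and 1 time in that of Mirg, and the other motifs did not occur in these windows.

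Malat1 differed many-fold between replicate numbers of the neuron cultures, in the same order under both viruses. In the scramble libraries of numbers 1, 2 and 3 it stood at 2340.5, 1173 and 205 CPM, and in the shBrpf1 libraries at 2135, 1352 and 161 CPM. Behind these levels were 60554, 36810 and 3416 counts with scramble and 61697, 40135 and 2816 with shBrpf1. The highest library was 14.52 times the lowest, whereas libraries of the same number differed between viruses by at most 0.34 on the log2 scale. In CA1, Malat1 stood at 255, 931 and 491 CPM with scramble and at 572, 1008 and 402 CPM with shBrpf1. Number 2 was the highest under each virus there, and the groups of both viruses overlapped in both experiments.

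Neat1, the chromosomal neighbour of Malat1, had the widest range of all members in neurons but another order. It stood at 21.6, 145 and 2.58 CPM in scramble libraries 1, 2 and 3 and at 25.4, 102 and 1.83 CPM in the shBrpf1 libraries, from 558, 4546 and 43 counts and from 734, 3018 and 32 counts. Number 2 was the highest and number 3 the lowest under each virus, and the extremes were 79.1-fold apart. Per 100 Malat1 counts there were 0.921, 12.3 and 1.26 Neat1 counts in the scramble cultures and 1.19, 7.52 and 1.14 in the shBrpf1 cultures. In CA1 the ratio was higher than in all neuron libraries but scramble number 2, which overlapped it, with 26.0, 11.9 and 38.0 counts per 100 Malat1 counts under scramble and 13.7, 17.7 and 35.1 under shBrpf1. Its CA1 levels were 66.4, 111 and 187 CPM with scramble and 78.1, 178 and 141 CPM with shBrpf1, and the 2 groups overlapped. The deposited length of Neat1, 3177 bases, is near that of the short form and far below the 20771 bases of the long form, so these counts may leave out much of the long form.

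**Figure D1:**
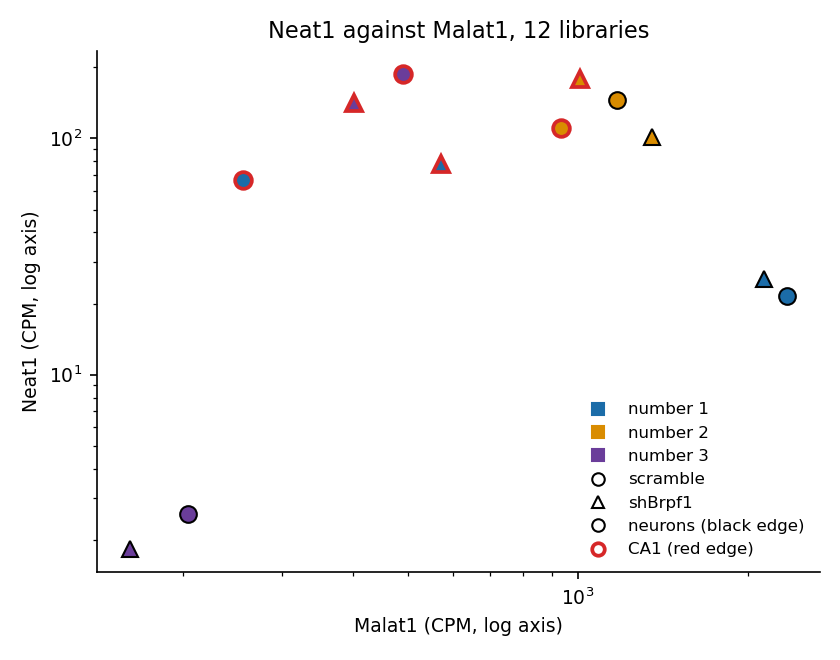
Neat1 level against Malat1 level in each of the 12 libraries, both in CPM on log axes, with colour for the replicate number, circles for scramble, triangles for shBrpf1, black edges for neurons and red edges for CA1. Libraries of one number lie together in neurons, and the number 2 neuron libraries, at 145 and 102 CPM of Neat1, lie above those of number 1, which had more Malat1.

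Among the imprinted transcripts of Dlk1-Dio3, Meg3 showed the same order as Malat1 with a wider range. In neurons it stood at 4059, 996 and 132 CPM in scramble libraries 1, 2 and 3 and at 3371, 1663 and 154 CPM with shBrpf1, from 105013, 31252 and 2205 counts and 97402, 49356 and 2693 counts. Meg3 ranked between 5 and 1864 among all genes by CPM over the 12 libraries. The extremes in neurons were 30.7-fold apart, and the largest difference between viruses at one number was 0.74 on the log2 scale. In CA1 Meg3 stood at 559.9, 2252 and 1297 CPM with scramble and at 1293, 2565 and 1321 CPM with shBrpf1. The scramble library of number 1 was far below the other 5.

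Rian, from the next gene of the cluster, varied much less. In neurons it stood at 709, 337 and 268 CPM with scramble and at 782, 481 and 268 CPM with shBrpf1, a 2.92-fold range in the same order. In CA1 it stood at 288, 417 and 395 CPM with scramble and at 353, 409 and 377 CPM with shBrpf1, a 1.45-fold range. Mirg, the microRNA host at the distal end, followed Meg3 at a low level. In neurons Mirg stood at 15.6, 5.39 and 0.779 CPM with scramble and at 13.5, 7.41 and 0.801 CPM with shBrpf1, where the number 3 libraries held only 13 and 14 counts. In CA1 it stayed between 5.16 and 9.85 CPM. Of all counts in the annotated Dlk1-Dio3 interval, 98.7% fell in Meg3, Rian and Mirg.

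Snhg11 had the largest differences between viruses at a single number of any member in neurons. In neurons it stood at 702, 39.0 and 13.8 CPM in scramble libraries 1, 2 and 3 and at 225, 88.5 and 18.0 CPM in the shBrpf1 libraries, from 18167, 1222 and 230 counts and 6504, 2626 and 314 counts. At number 1 the shBrpf1 library lay below the scramble library by 1.64 on the log2 scale, and at number 2 it lay above by 1.17, so the pairs ran in opposite directions. The extremes were 51.0-fold apart. In CA1 Snhg11 was 377, 1158 and 683 CPM with scramble and 565, 1095 and 714 CPM with shBrpf1. All 6 CA1 libraries lay above every neuron library but scramble number 1.

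Miat had the same order of numbers in neurons over a narrower range than Malat1 and Meg3, at 536, 320 and 118 CPM with scramble and 529, 379 and 97.9 CPM with shBrpf1. In CA1 it stood at 216, 675 and 276 CPM with scramble and at 345, 626 and 353 CPM with shBrpf1, with number 2 highest under each virus. Kcnq1ot1 was low throughout and had the narrowest range of the members in neurons, between 7.01 and 19.4 CPM there and between 6.61 and 20.8 CPM in CA1. By the mean of both viruses, each again had number 3 lowest in neurons and number 1 lowest in CA1.

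**Figure D2:**
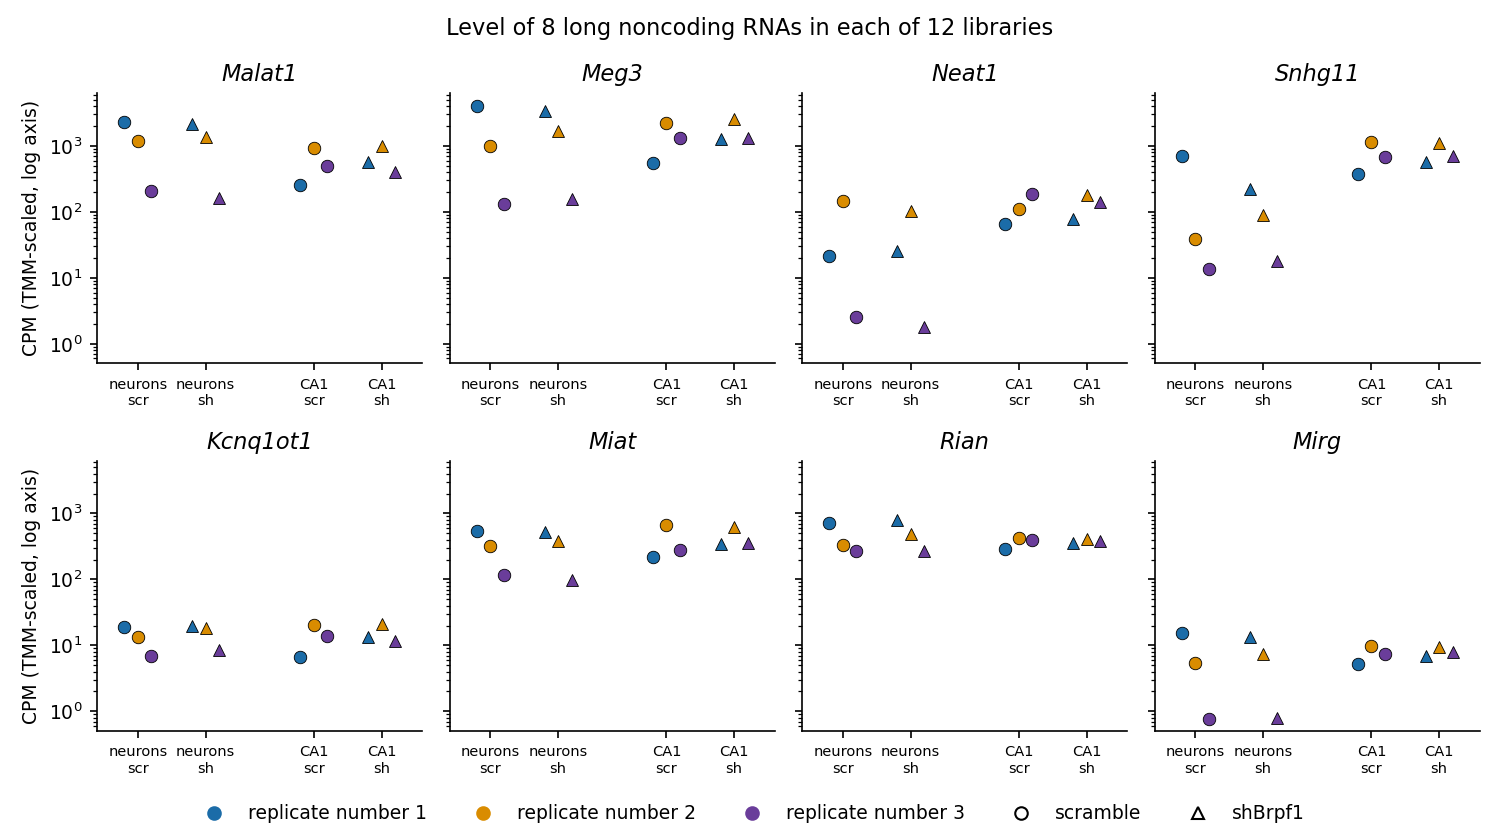
Level of each of the 8 noncoding RNAs in the 12 libraries, in CPM on a log axis, by experiment, virus and replicate number. In neurons 7 of the 8 were highest in number 1 and lowest in number 3, and in CA1 7 of the 8 were highest in number 2.

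Levels of different members were compared per kilobase of deposited length. In scramble neurons, Malat1 had a mean of 178 CPM per kb ± 153 (SD, n = 3), Meg3 134 ± 159.9, Rian 122, Snhg11 42.9 ± 66.6, Miat 37.0, Neat1 17.7 ± 24.3, Mirg 5.58 and Kcnq1ot1 0.156. In scramble CA1, Snhg11 was first with 126 CPM per kb ± 67.1, ahead of Meg3 with 106 ± 65.7, Rian with 102, Malat1 with 80.1 ± 49.1, Miat with 44.4, Neat1 with 38.2 ± 19.1, Mirg with 5.76 and Kcnq1ot1 with 0.164. The mean ± SD ranges of neighbours overlapped throughout the order in neurons and from Snhg11 to Neat1 in CA1, so these places are not resolved beyond the spread. In CA1 Neat1, Mirg at 5.76 ± 1.81 and Kcnq1ot1 at 0.164 ± 0.0833 did not overlap. The per-kilobase value of Neat1 rests on the short length, and a value here does not allow for which isoform was counted.

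Against other genes, the spread of the members in neurons was wide, which is what they were chosen for. The median gene among the 10670 with a mean of at least 10 CPM had a ratio of highest to lowest library of 1.76. Neat1, Snhg11, Meg3 and Malat1 had a larger SD of log2 CPM than 99.9%, 99.7%, 99.7% and 99.3% of those genes. Mirg exceeded 99.2% of them, Miat 96.8%, Rian 88.8% and Kcnq1ot1 84.9%. Mirg had group means of only 7.26 and 7.23 CPM in neurons, so it was set against more abundant genes. The ratio for Malat1 was 15.9 on plain library totals and 16.1 on totals without the members and Rn45s, the 45S ribosomal RNA precursor in neurons, so it was as large on these scalings. Rn45s itself differed between the number 3 neuron libraries, at 38870 CPM in scramble and 999 CPM in shBrpf1, while Malat1 was low in both.

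In CA1, which the choice of members did not use, the members also spread more than most genes. The median ratio of highest to lowest was 1.54 among 10178 genes. Meg3 had a ratio of 4.58 and Malat1 of 3.95, with a larger SD than 98.04% and 97.9% of genes. Kcnq1ot1, Miat, Snhg11 and Neat1 had ratios between 2.81 and 3.15 and exceeded 95.8% to 97.0% of genes. Mirg, again below 10 CPM on average, exceeded 73.6% and Rian 38.8%. Scramble number 1 was the lowest CA1 library for all 8 members. In that library mitochondrial transcripts summed to 101604 CPM against 63944 to 77729 CPM in the other 5, ribosomal protein genes to 17251 CPM against 9781 to 13925 CPM, and nuclear speckle and splicing protein genes to 5458 CPM against 6432 to 7939 CPM. Genes of 2 kb or less departed there by a median of 0.28 from their CA1 mean on the log2 scale and genes of 6 kb or more by -0.50, the most extreme of the 6 libraries for both. Whether the makeup or RNA quality of that library has a part in the low levels was not tested.

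**Figure D3:**
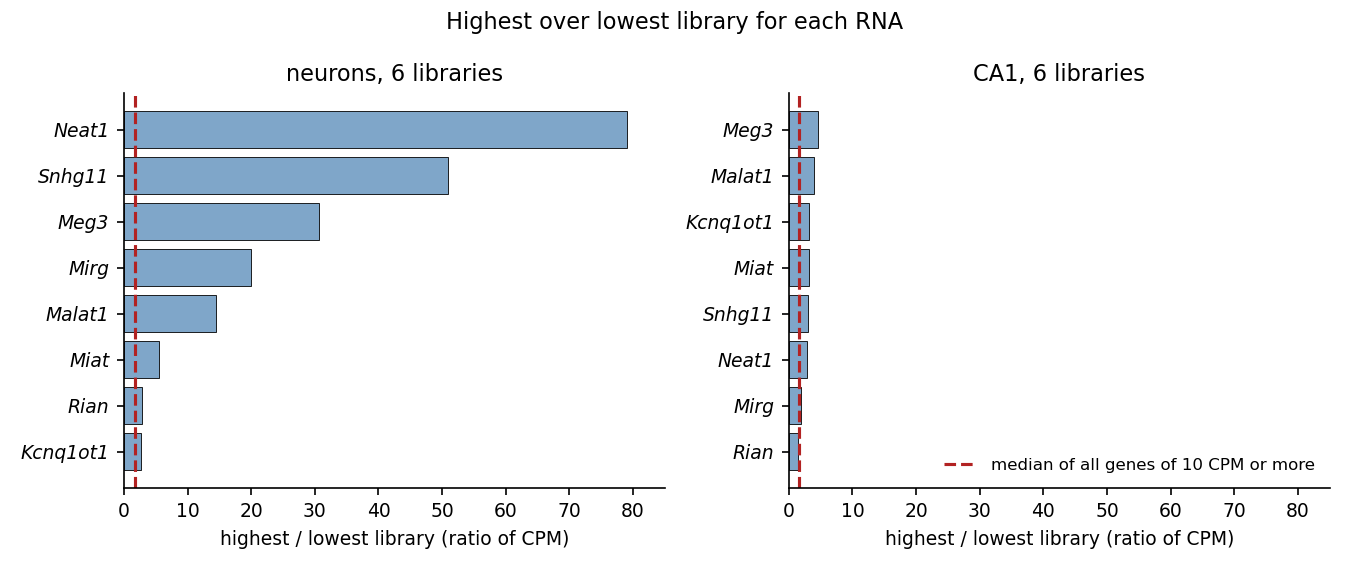
Ratio of the highest to the lowest library for each member over the 6 neuron libraries and the 6 CA1 libraries, beside the median over all genes of at least 10 CPM. In neurons the ratio ran from 2.76 for Kcnq1ot1 to 79.1 for Neat1, and in CA1 from 1.45 for Rian to 4.58 for Meg3.

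In the levels of these members, libraries of one replicate number were alike in neurons. The list was chosen for differences between numbers there and its members moved together, so this is a description. How many other genes meet the same condition was not counted. For all 8 members the range between the means of the numbers exceeded the largest difference between viruses at one number, by 3.62 against 0.34 on the log2 scale for Malat1, 5.51 against 0.51 for Neat1 and 4.62 against 1.64 for Snhg11. In CA1 the range was also the larger for all 8, by 1.34 against 1.16 for Malat1 and 1.497 against 1.21 for Meg3, and by 1.29 against 0.58 for Snhg11 and 1.25 against 0.67 for Miat. Together the 8 members took 0.874%, 0.328% and 0.0666% of all counts in the scramble neuron libraries and 0.678%, 0.444% and 0.0677% in the shBrpf1 ones. In CA1 they took 0.172% to 0.629%.

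Other features of the neuron libraries moved with the same numbers. Summed oligodendrocyte lineage markers were 949.6, 1755 and 4781 CPM in scramble libraries 1, 2 and 3 and 789, 1050.0 and 4868 CPM in the shBrpf1 libraries, so they were highest where Malat1 and Meg3 were lowest. Pan-neuronal markers did not follow, at 7988, 3841 and 8764 CPM and 9738, 5491 and 8627 CPM. Mitochondrial transcripts were highest in number 2, with 87810 and 81980 CPM, the number in which Neat1 was highest. In the scramble libraries, 36 other long noncoding RNAs had a signed median log2 departure from their mean of 0.38, -0.10 and -0.24. For the members it was 1.26, 0.19 and -1.98, a spread for which they were chosen. Rises and falls cancel in a signed median, so these values do not show how far each of the other RNAs moved. The part of these features in the members' levels was not tested.

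The members' log2 levels moved together. Over the 28 pairs of members and 6 libraries, Pearson's r had a median of 0.93 in neurons, from 0.43 for Neat1 with Snhg11 to 1.00, and a median of 0.93 in CA1, from 0.39 for Neat1 with Miat to 0.99 for Snhg11 with Mirg. These are descriptions over 6 libraries that fall into 3 numbers and share library scaling.

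By the same measure, the genes most like each leading member were a mixed set. In neurons Malat1 was closest to Eif2s3y, a Y-linked translation initiation factor gene (r = 0.999; 3.32 to 50.7 CPM), then to Miat, Uba3, Map4k2 and Tyk2. Meg3 was closest to Mir1906-2 (r = 0.998; 1.44 to 150.5 CPM), then to Snx2, Hexdc, Zfp942 and Pdp1. A copy of that microRNA gene by name, Mir1906-1, lies within the span of Meg3 and was at 0 counts in all 12 libraries, so reads given to Mir1906-2 may belong to Meg3. Neat1 was closest to Srsf7, a splicing factor gene (r = 0.999), then to Dbr1, Lhfp, Wdr90 and Flnc. Snhg11 was closest to Hook1 (r = 0.996), Fkbp3, Trank1, Zfc3h1 and St8sia4. In CA1 the closest genes were Cdon, Ddx17, Plekha1, Gabpb2 and Zmym6 for Malat1, Dhx35, Zfp280c, Prpf39, Brd8 and Zfp629 for Meg3, Stxbp3, Mtus1, Rffl, Prr5l and Ctso for Neat1, and Ankrd10, Klhl17, Ccnl1, E4f1 and Unk for Snhg11. None of these genes was named for the same member in both experiments.

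The targeted gene was examined first in the knockdown comparison. Brpf1 stood at 23.4, 52.8 and 38.5 CPM in scramble neurons and at 27.1, 49.6 and 32.4 CPM in shBrpf1 neurons, where the groups overlapped. In CA1 it stood at 40.4, 46.4 and 36.0 CPM with scramble and at 28.0, 37.3 and 28.5 CPM with shBrpf1, lower in each numbered pair. The log2 fold change of Brpf1, shBrpf1 against scramble, was -0.06 (SE 0.36) in neurons and -0.38 (SE 0.18) in CA1, and neither met the call. With the replicate number as a block, the neuron value was -0.04 (SE 0.12) and the CA1 value -0.38 (SE 0.15). For CA1 edgeR's quasi-likelihood test gave an unadjusted p of 0.0719 without the block and 0.038 with it. The adjusted p there was 0.934 and 0.857. In neurons no reduction of Brpf1 beyond the spread was therefore seen in these libraries, and in number 1 the shBrpf1 library was the higher. The paper reports lower Brpf1 by RT-qPCR in its infected cultures and in the injected hippocampus, but does not say whether these same samples were measured. The neuron comparison below is thus one of the libraries labelled shBrpf1 and scramble.

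None of the 8 noncoding RNAs was called between neurons labelled shBrpf1 and scramble. A gene was called where its log2 fold change was at least 1 in size with an unadjusted p under 0.05 in edgeR's quasi-likelihood test, which 9 of 16066 tested genes met, or 0.056%. At an unadjusted p under 0.05 regardless of size there were 12 genes, or 0.0747%, and at an adjusted p under 0.05 there were 0, or 0%, again with none of the members, and DESeq2 and limma-voom gave no member either. The log2 fold change of Malat1 was -0.02 (SE 1.06), with 1239.5 CPM ± 1069 (SD, n = 3) under scramble and 1216 CPM ± 994 under shBrpf1. Meg3 was 1729 CPM ± 2063 and 1729 CPM ± 1609.6, with 0.00 (SE 1.32). Neat1 was 56.4 CPM ± 77.3 and 43.0 CPM ± 52.2, with -0.38 (SE 1.54), and Snhg11 252 CPM ± 390.4 and 111 CPM ± 105, with -1.19 (SE 1.47). Kcnq1ot1, Miat, Rian and Mirg had log2 fold changes of 0.24 (SE 0.47), 0.05 (SE 0.73), 0.22 (SE 0.53) and -0.01 (SE 1.17). The adjusted p was 1.00 for each in edgeR's quasi-likelihood test. The standard error was above 1 on the log2 scale for Malat1, Meg3, Neat1, Snhg11 and Mirg, so a change of that size was not detectable for them.

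With the replicate number as a block, the standard errors in neurons shrank several-fold and still no member was called. The number of genes called rose to 51 of 16066, or 0.317%, and 787, or 4.9%, had an unadjusted p under 0.05, with 0 at an adjusted p under 0.05 in edgeR. The log2 fold change of Malat1 was then -0.08 (SE 0.16), of Meg3 0.24 (SE 0.22), of Neat1 -0.21 (SE 0.18), of Snhg11 -0.02 (SE 0.63), of Kcnq1ot1 0.27 (SE 0.15), of Miat -0.01 (SE 0.14), of Rian 0.22 (SE 0.14) and of Mirg 0.11 (SE 0.22). Within numbers, Malat1 therefore stayed close to its scramble partner, at -0.13, 0.20 and -0.34 on the log2 scale for numbers 1, 2 and 3.

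In CA1 no member was called either, against 75 of 16022 genes, or 0.468%. At an unadjusted p under 0.05 there were 184 genes, or 1.15%, and none of the members in edgeR, DESeq2 or limma-voom. All 8 estimates were above 0, with a median log2 fold change of 0.15 against 0.01 over all genes tested. Meg3 was 1369.8 CPM ± 848 with scramble and 1726 CPM ± 726 with shBrpf1, with a log2 fold change of 0.34 (SE 0.49), and Malat1 559 CPM ± 343 and 661 CPM ± 313, with 0.25 (SE 0.50). Miat was 0.19 (SE 0.44), Kcnq1ot1 0.16 (SE 0.41), Neat1 0.14 (SE 0.40), Mirg 0.13 (SE 0.29), Snhg11 0.10 (SE 0.41) and Rian 0.06 (SE 0.19). Adjusted p ranged from 0.935 to 0.977 in edgeR's quasi-likelihood test. In number 1, the pair with the low scramble library, the shBrpf1 value exceeded the scramble value by 1.16 for Malat1 and 1.21 for Meg3 on the log2 scale, against 0.11 and 0.19 in number 2 and -0.29 and 0.03 in number 3. Without scramble library 1, all 8 estimates were below 0, from -0.21 for Snhg11 to -0.04 for Meg3, with Malat1 at -0.10. With all CA1 libraries and the replicate number as a block, the 8 estimates were 0.08 to 0.48 (SE 0.17 to 0.30), and no member was called.

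An exact two-sided permutation test over samples gave p between 0.6 and 1.0 for the members in neurons and between 0.5 and 0.9 in CA1. With 3 libraries against 3 its smallest possible p is 0.1. The 2 groups overlapped for every member in both experiments.

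**Figure D4:**
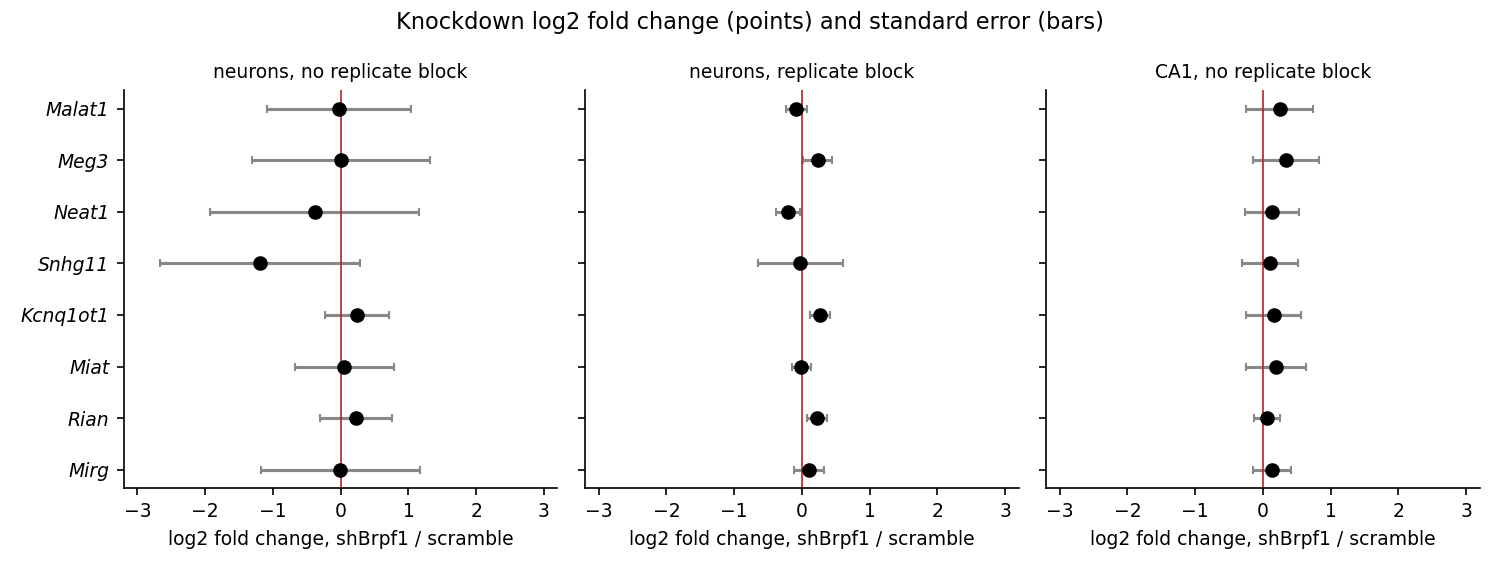
Log2 fold change, shBrpf1 against scramble, of each member from edgeR (points, with bars of 1 standard error) in neurons without and with the replicate number as a block and in CA1 without it. The standard errors were 0.47 to 1.54 in neurons without the block, 0.14 to 0.63 with it and 0.19 to 0.50 in CA1.

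CA1 was compared with the cultures in the scramble libraries, which also serve as controls of the knockdown comparisons. No member was called at an adjusted p under 0.05, although 4597 of 17254 genes were, or 26.6%, 1919 higher (11.1%) and 2678 lower (15.5%) in CA1. At an unadjusted p under 0.05 there were 6671 genes, or 38.7%, and again no member. Without chromosomes 13 and Y, 3813 of 16661 genes were called, or 22.9%, 11% higher and 11.9% lower, and no member. The log2 fold change of Snhg11 was 1.55 (SE 1.18), from a mean of 252 CPM ± 390.4 in neurons to 739.5 CPM ± 394 in CA1, with an adjusted p of 0.362 in edgeR. That of Malat1 was -1.15 (SE 0.90), from 1239.5 CPM ± 1069 to 559 CPM ± 343, with an adjusted p of 0.380 in edgeR. Neat1 was 1.10 (SE 1.22), Meg3 -0.34 (SE 1.07), Miat 0.26 (SE 0.65), Rian -0.26 (SE 0.41), Kcnq1ot1 0.07 (SE 0.47) and Mirg 0.04 (SE 0.90). DESeq2 called none, and limma-voom gave Snhg11 an unadjusted p of 0.0367 and an adjusted p of 0.102, within a range of 0.0071 to 0.802 over all alternatives. Without scramble neuron library 1, which held 702 CPM, Snhg11 passed with a log2 fold change of 4.77 and an adjusted p of 0.0071 in edgeR, and with all libraries of number 1 left out it was 5.12. The exact two-sided permutation p of the members was between 0.3 and 0.9.

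The difference between shBrpf1 and scramble did not differ detectably between CA1 and neurons for any member. No gene of 17254 was called in edgeR's test of that difference at an adjusted p under 0.05, or 0%, against 58, or 0.336%, at an unadjusted p under 0.05, and DESeq2 and limma-voom called 0 as well. Without a block, the log2 difference, CA1 minus neurons, was 0.27 (SE 1.26) for Malat1, 0.33 (SE 1.52) for Meg3, 0.52 (SE 1.71) for Neat1 and 1.28 (SE 1.64) for Snhg11. With the replicate number as a block, the differences of the 8 members were -0.15 to 0.41 (SE 0.22 to 0.65), and no member was called.

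Genes of the same pathways were set beside the members from lists. In edgeR without a block, 0 genes of the following lists were called after knockdown in either experiment, and 0 had an unadjusted p under 0.05. They were 39 other long noncoding RNAs in neurons and 41 in CA1, 28 small nucleolar RNA hosts, 31 paraspeckle protein genes and 46 speckle and splicing genes. Of all tested genes, 0.056% were called in neurons and 0.468% in CA1, and 0.0747% and 1.15% had an unadjusted p under 0.05. At such shares, 0 does not set these lists apart. Elsewhere, 1 of 9 CA1 pyramidal markers in neurons had an unadjusted p under 0.05. In CA1, 1 of 10 RNAs without a poly(A) tail and 1 of 17 progenitor and cell cycle genes did. Between CA1 and neurons, where 11.1% of all tested genes were higher in CA1 and 15.5% lower, or 11% and 11.9% in the fit without chromosomes 13 and Y, 6 of 43 other long noncoding RNAs were higher in CA1, Peg13 (1.36 on the log2 scale), Sox2ot (1.27), Ftx (1.70), Zfas1 (1.41), A330008L17Rik (2.37) and Lhx1os (3.01). Another 5 were lower, Pvt1 (-0.75), Mir9-3hg (-0.83), Airn (-2.39), Mir670hg (-1.94) and Mir100hg (-1.73). The list's median was 0.21 against -0.05 over all genes, and Peg13, an imprinted brain transcript, was the most abundant of those named, at 96.1 CPM in scramble neurons and 247 CPM in scramble CA1.

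Beside the same shares of 11% higher and 11.9% lower, 5 of the 28 small nucleolar RNA hosts, relatives of Snhg11, were called. Snhg12 (1.08), Zfas1 (1.41) and Eif4a2 (1.08) were higher in CA1 and Snhg1 (-0.86) and Rcc1 (-0.99) lower. In the Dlk1-Dio3 region, 2 of 13 coding genes were higher, Begain (1.08) and Slc25a29 (0.69). In the Kcnq1 region, 3 of 13 coding genes were lower in CA1, Osbpl5 (-1.14), Cars (-0.94) and Dhcr7, an enzyme of cholesterol synthesis (-1.74).

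Of 31 genes for paraspeckle proteins, the partners of Neat1, 7 were lower in CA1 than in neurons and none higher, where 15.5% of all tested genes were lower, or 11.9% in the fit without chromosomes 13 and Y, which the list leaves out. These were Sfpq (-0.95), Hnrnpa1 (-0.74), Hnrnpf (-0.94), Nudt21 (-0.97), Rbm12 (-0.99), Fam98a (-0.70) and Fip1l1 (-1.19). Sfpq, a core paraspeckle protein, averaged 277 CPM in scramble neurons and 144 CPM in scramble CA1. Of 46 speckle and splicing genes, 1 was lower, the cyclin-dependent kinase gene Cdk12 (-0.97). CA1 also held other cells. Summed microglia markers were 396 to 797 CPM in CA1 and 1.56 to 25.7 CPM in neurons, and oligodendrocyte lineage markers 6033 to 13250 CPM and 789 to 4868 CPM, and their part in these differences was not tested.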

How the data were processed

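The authors extracted total RNA from 12 samples, had it sequenced as paired-end mRNA libraries and deposited 1 table per sample with whole-number read counts per Entrez gene ID beside the gene's length, made by STAR alignment and StringTie counting. Versions, the strand setting and the handling of multimapped reads are not given in the sources used here, and the sources name different genome builds (the labels mm9). Of the IDs, 1828, with 1.44% of all counts, had no gene name here and stayed in the totals and tests by ID. In CA1, chromosomes 13 and Y were at 0 throughout.

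Counts were analysed with edgeR 4.0.16 in R 4.3.3 (TMM scaling, robust quasi-likelihood fit) for genes that reached 10 counts in 3 or more libraries of the fit, with Benjamini-Hochberg adjustment over all tested genes. Knockdown was fitted within each experiment without a block, and CA1 against neurons and the difference of the knockdown effects in 1 fit of 12 libraries. Log2 levels used a pseudocount of 0.5 CPM, and a standard error is the size of the log2 fold change over the root of F. Alternatives were DESeq2 1.42.0, limma 3.58.1 voom, other scalings and filters, a replicate block and libraries left out. The fits were run on simulated counts with a small fixed dispersion and no effect of the replicate number. These libraries spread far more, so that run checks the code and not the power in these data. Same-numbered neuron libraries deviated together (r of 0.608, 0.899 and 0.860 over 14759 genes), which was taken as pairing. The paper describes the samples of each experiment as pairs. Which neuron libraries form a pair comes from the data, since the labels give only the number.

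Named genes were the 8 members, list genes that passed the call (up to 4 abundant others were allowed), the 5 genes most correlated with each of Malat1, Meg3, Neat1 and Snhg11, Brpf1 and Rn45s. The members and lists were chosen with earlier results of these data known. The alternatives without chromosomes 13 and Y, and with the block in DESeq2, were chosen after seeing the data.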

Additional observations from a re-analysis of the deposited data

How the results depend on the processing

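No member was called in either knockdown comparison or in their difference under any alternative run, and in CA1 against neurons Snhg11 alone was called, without scramble neuron replicate 1 (4.77) or all libraries of replicate 1 (5.12). Signs were not stable, and the cause was not tested. Of the reversals listed next, Snhg11 in neurons was -1.19 in the main fit. Meg3 between CA1 and neurons was -0.34 there, and the others were nearer 0. In neurons the log2 fold change of Mirg was 0.0051 with DESeq2 size factors, 0.0044 with no filter, 0.0046 in DESeq2, 0.139 in voom, 0.106 with the replicate block and 0.118 with that block in DESeq2. Meg3 was -0.069 on library totals and -0.014 with a minimum of 50 counts, Miat -0.0011 on library totals, -0.023 in voom and -0.0067 with the replicate block, and Snhg11 0.019 with the block in DESeq2. Between CA1 and neurons, Mirg was -0.025 on library totals, Meg3 0.617 in voom and Kcnq1ot1 -0.0086 in voom. The genes called in neurons, 9, became 55 with no filter, 3 with a minimum of 50 counts, 17 in DESeq2, 5 in voom, 51 with the replicate block, 50 with it in DESeq2 and 81 in the fit of all 12 libraries. Those in CA1, 75, became 151 with no filter and 24 with a minimum of 50 counts. With libraries left out, alone or by number, the genes called ranged from 0 (all of number 1) to 94 (without shBrpf1 replicate 3) in neurons, from 31 (all of number 1) to 305 (all of number 2) in CA1 and from 2329 (all of number 3) to 4573 between CA1 and neurons, and the members called there from 0 to 1.

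Over the same omissions the log2 fold change in neurons ranged for Malat1 from -0.71 to 0.83, Meg3 -0.92 to 1.63, Neat1 -2.05 to 1.84, Snhg11 -2.24 to 2.08, Kcnq1ot1 -0.066 to 0.62, Miat -0.44 to 0.63, Rian -0.23 to 0.77 and Mirg -0.81 to 1.23. In CA1 it ranged for Malat1 from -0.18 to 0.85, Meg3 -0.054 to 0.92, Neat1 -0.20 to 0.57, Snhg11 -0.21 to 0.60, Kcnq1ot1 -0.17 to 0.59, Miat -0.14 to 0.87, Rian -0.089 to 0.18 and Mirg -0.077 to 0.40. Between CA1 and neurons it ranged for Malat1 from -1.79 to 0.045, Meg3 -1.20 to 1.65, Neat1 0.09 to 3.35, Snhg11 0.54 to 5.12, Kcnq1ot1 -0.38 to 0.77, Miat -0.43 to 1.12, Rian -0.57 to 0.42 and Mirg -0.49 to 1.46. The difference of the knockdown effects ranged for Malat1 from -0.56 to 0.95, Meg3 -1.26 to 1.26, Neat1 -1.70 to 2.17, Snhg11 -1.95 to 2.34, Kcnq1ot1 -0.49 to 0.34, Miat -0.42 to 0.81, Rian -0.69 to 0.28 and Mirg -1.07 to 0.93. The paper describes the CA1 tissues as pairs, without saying which libraries form a pair. In CA1 the same-number correlations were -0.38, 0.21 and 0.35, so the main fit did not pair those libraries by number. Xist, however, was high only in number 3 under both viruses. The replicate block gave 86 genes called and no member in CA1. The block was not run for CA1 against neurons, since it would remove the spread between numbers that this contrast is set against. On the 2 other scalings 191 of 192 levels moved by less than 1 SD of their group, all but Rian in shBrpf1 CA1 library 2 (439 CPM without the members and Rn45s).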

Other observations

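Xist, the long noncoding RNA that coats the inactive X chromosome, also differed by replicate number, and was looked at together with Y-linked genes after Eif2s3y came out as most like Malat1 in neurons. Xist stood at 208, 567 and 796 CPM in scramble neuron libraries 1, 2 and 3 and at 187, 642 and 971 CPM in the shBrpf1 libraries, the reverse of the order of Malat1. The Y-linked genes had the order of Malat1, with Eif2s3y at 50.7, 25.2 and 3.83 CPM and 43.5, 25.5 and 3.32 CPM, and Ddx3y at 69.8, 31.5 and 16.5 CPM and 57.4, 32.7 and 14.9 CPM. Kdm5d and Uty had that order too. In CA1, Xist was at 13, 19 and 20003 counts in scramble libraries 1, 2 and 3 and at 23, 10 and 20340 counts in the shBrpf1 libraries, so number 3 stood apart under both viruses. Y-linked genes cannot be read in CA1, where the files list the whole chromosome at 0. In CA1, number 2 was highest for 7 of 8 members. Xist was at 23 counts or fewer in numbers 1 and 2 there, so it gives no order of those numbers to set beside the members. How the members' levels relate to Xist or the Y-linked genes was not tested.

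Chromosome 13, also at 0 in all CA1 files, held 3.05% to 3.38% of counts in the neuron libraries. In neurons the small nucleolar RNA gene AF357359, which RefSeq places within the span of Rian, had 894, 361 and 186 counts with scramble and 758, 563 and 275 with shBrpf1, in the order of Rian.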
